A study of Ursus arctos with 12 samples.

Results

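A set of 9 kinase genes was followed in the thigh muscle of brown bears between the active season and hibernation: the 4 CLK genes (CLK1, CLK2, CLK3 and CLK4), the 3 SRPK genes (SRPK1, SRPK2 and SRPK3) and the DYRK1 pair (DYRK1A and DYRK1B). They were taken by gene symbol, and 9 of 9 were found among the 30249 genes counted and among the 17290 that had at least 30 reads over the 12 libraries. The libraries came from biopsies of the vastus lateralis of 6 free-ranging Ursus arctos aged 2 to 3 years, each sampled under anesthesia in winter (February, hibernating) and again in summer (June, active) of a given year. No agent or genetic change separated the groups, which differ in temperature, feeding, activity and time of year together, so these cannot be told apart.

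CLK, SRPK and DYRK1 kinases belong to one broad kinase group and phosphorylate the serine- and arginine-rich (SR) proteins that choose splice sites. SRPKs act largely in the cytoplasm, where phosphorylation sends SR proteins into the nucleus, and CLKs phosphorylate them further inside the nucleus and release them from nuclear speckles. CLK1 and CLK4 are known as body-temperature sensors, since a small fall in temperature raises their kinase activity, and both genes keep part of their transcripts in the nucleus with introns unspliced. Counts per gene measure the amount of mRNA, not kinase activity or intron retention, and body temperature is not part of these data.

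Depth ran from 16742406 to 32140160 counted reads per library, and counts were scaled by TMM, which corrects for library composition. Levels are log2 CPM (log2 of the reads of a gene scaled to library size as CPM, with a prior count of 2), and a change is given as log2 FC, the fitted log2 fold change of winter over summer, with its SE (standard error). A gene was called at an adjusted p below 0.05 in the quasi-likelihood test of edgeR, adjusted by Benjamini-Hochberg over all 17290 genes, the test behind each adjusted p unless another is named. Of the fibre markers, 8 of 10 were in the table, with summed levels of 114151 to 199822 CPM in summer and 126122 to 161675 in winter, and 1 (TTN, 0.65) was called higher and 2 (MB, −1.01, and ACTA1, −0.90) lower. Over all genes tested, 19.6% were called higher and 19.9% lower, shares to be set beside each marker count. Markers of other cells were often lower in winter. For fibroblasts 3 of 5 were called lower (summed 2479 to 6949 CPM in summer, 237 to 1413 in winter), for endothelium 4 of 4 (543 to 879, then 339 to 400) and for macrophages 2 of 4 (47.3 to 97.2, then 35.1 to 62.2). For smooth muscle and pericytes 1 of 4 was lower (431 to 560, then 230 to 323) and for satellite cells 2 of 2 (4.35 to 9.29, then 1.16 to 2.76). Among 4 adipocyte markers 1 was higher and 1 lower (293 to 1311, then 216 to 452), and the red cell marker ALAS2 stayed at or below 2.1 CPM. With the replicate block described below, DCN and PDGFRB were also lower, making 4 of 5 for fibroblasts and 2 of 4 for smooth muscle and pericytes, and the higher adipocyte marker, LEP (0 to 19 reads), lost its call. In bulk tissue, fewer cells of a type and less RNA per cell cannot be told apart, and the part of these shifts in the kinase results was not tested.

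The winter library of bear 1509 stood apart from the others. Of 3 neuronal markers, 2 were in the table, with summed levels of 0.182 to 0.746 CPM in summer and 0 to 138 in winter. SNAP25, a neuronal gene, was at 136 CPM there and at most at 0.24 CPM in the other 11 libraries, and RBFOX3 was at 2.48 CPM against at most 0.70. Its place on the second principal component was −98.6, against 6.35 to 23.1 for the remaining winter libraries. Where the call or the sign of a kinase's fitted change differs without it, both values are given below. The family pairs were not recomputed without it.

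In winter 3 of the 9 kinases were higher and 1 was lower in the fit with season only. With the replicate block described below, which uses the pairing, 4 were higher, SRPK3 being added, and 1 was lower. That block gave 3392 genes higher and 3663 lower of all 17290. Over all genes tested, 19.6% were called higher and 19.9% lower, so the counts are given for these genes and not as a property of the list. The stricter limits for differentially expressed genes (DEGs) were a fold above 1.3 or under 0.77 at an adjusted p under 0.01. By these, with season only, the counts were again 3 and 1, where 12% of all genes passed upwards and 12% downwards. DYRK1A missed the limit of 0.01 in 6 of 15 alternatives (adjusted p = 0.010 to 0.0232), namely library totals, no filter and leaving out bear 1305, 1316, 1317 or 1509, which leaves 2 kinases higher. For these 4 kinases, CLK1, CLK4, DYRK1A and DYRK1B, the winter and summer libraries did not overlap, which held for 9.12% of all genes with winter above and 8.21% with winter below. The median log2 FC of the 9 was 0.19, beside −0.0021 over all genes tested. Summed over the 9 kinases, the level went from 341 to 465 CPM in summer to 481 to 708 CPM in winter, with no overlap and an increase in 6 of 6 bears. This sum does not stand for each kinase. The share of the reads on the 9 rose in 6 of 6 bears for CLK1 and CLK4. It rose in 4 of 6 for SRPK3, in 2 of 6 for DYRK1A and in 0 of 6 for CLK2, CLK3, SRPK1, SRPK2 and DYRK1B. A share falls when other kinases rise, so a lower share is not by itself a lower level.

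**Figure D1:**
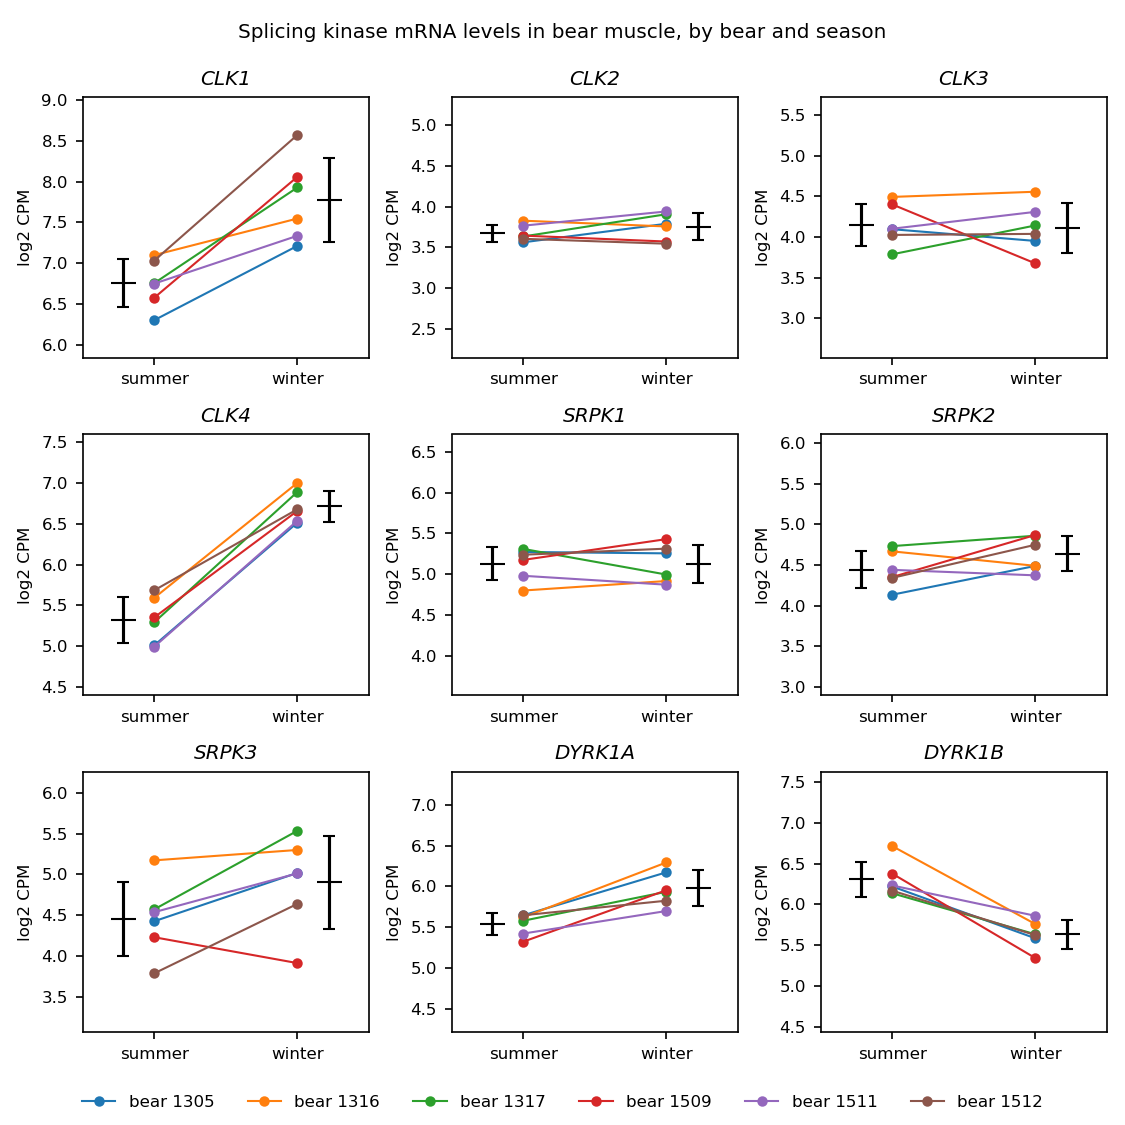
Level of each kinase (vertical axis, log2 CPM, each panel spanning the same number of log2 units) in summer and winter. Lines join the 2 libraries of a bear, and black bars give the mean ± SD of 6 bears. CLK1 and CLK4 climb in 6 of 6 bears, DYRK1A climbs less, DYRK1B descends, and the remaining 5 panels stay mixed or flat.

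CLK4, the closest relative of CLK1 and a nuclear kinase of SR proteins, showed the largest change of the 9. Summer libraries had 4.99 to 5.68 log2 CPM with a median of 5.32, and winter libraries 6.52 to 7.0 with a median of 6.67. The lowest winter library was therefore above the highest summer one by more than the spread within either season. The winter level was 2.61 times that of summer (log2 FC 1.39, SE 0.14, adjusted p = 1.32e-05), with 6 of 6 bears higher. Bear 1512, which had the highest summer level, rose by 1.0, and the other 5 bears by 1.31 to 1.6.

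CLK1, the founding member of the family and an autoregulated splicing kinase, also rose in 6 of 6 bears. Summer levels ran from 6.30 to 7.10 log2 CPM (median 6.75) and winter levels from 7.21 to 8.57 (median 7.74). The gap between the seasons was narrow, since bear 1305 in winter lay only just above bear 1316 in summer. The log2 FC was 1.08 (SE 0.22, adjusted p = 0.00154), or 2.11-fold. Its winter spread was wider than that of CLK4, with an SD of 0.51 against 0.19 log2 CPM (n = 6 bears). In winter, bear 1512 had 11693 CLK1 reads and 8.57 log2 CPM, followed by bear 1509 at 8.06, and without bear 1512 the log2 FC was 0.94 (adjusted p = 0.00326). Bears that rose most in CLK1 were not those that rose most in CLK4: bear 1512 had the largest change in CLK1, 1.54, and the smallest in CLK4.

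CLK2 and CLK3, nuclear kinases with the same kind of SR protein substrates, gave no call. CLK2 was at 3.56 to 3.83 log2 CPM in summer (median 3.64) and 3.55 to 3.94 in winter (median 3.77), so the seasons overlapped almost fully. Its log2 FC was 0.08 (95% interval −0.14 to 0.31, adjusted p = 0.554), and 3 of 6 bears were higher. CLK3 spanned 3.79 to 4.49 log2 CPM in summer (median 4.10) and 3.68 to 4.56 in winter (median 4.09), with a log2 FC of −0.03 (95% interval −0.36 to 0.30, adjusted p = 0.89). Bear 1509 fell by 0.72 in CLK3 while the other bears lay between −0.14 and 0.35. Without the winter library of bear 1509 the CLK3 value was 0.05 (adjusted p = 0.823). Both intervals lie below the rise of CLK4, whose 95% interval was 1.09 to 1.68, and below that of CLK1 at 0.61 to 1.55.

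The change within each bear was compared between members of a family in 10 pairs, with an exact sign-flip permutation test (two-sided) over the 6 bears. Its smallest possible p is 0.03125, which 5 pairs reached, and adjusted over the 10 pairs it became 0.0625, so 0 of 10 pairs passed 0.05. In those 5 pairs the direction was the same in 6 of 6 bears. CLK4 exceeded CLK2 by 1.32 ± 0.14 and CLK3 by 1.43 ± 0.36 on the log2 scale (SD of the difference, n = 6 bears). CLK1 exceeded CLK2 by 0.95 ± 0.52 and CLK3 by 1.06 ± 0.71 (SD, n = 6 bears). CLK1 and CLK4 themselves differed by −0.37 ± 0.62 (exact permutation p = 0.219, n = 6 bears), with CLK1 rising more in 2 of 6. With 6 bears, a pair could pass 0.05 after adjustment only if more of the 10 pairs had reached that smallest p. The pair differences and the fitted 95% intervals come from the same 12 libraries, and the pairs were named after values were seen. Neither therefore adds support to the other.

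**Figure D2:**
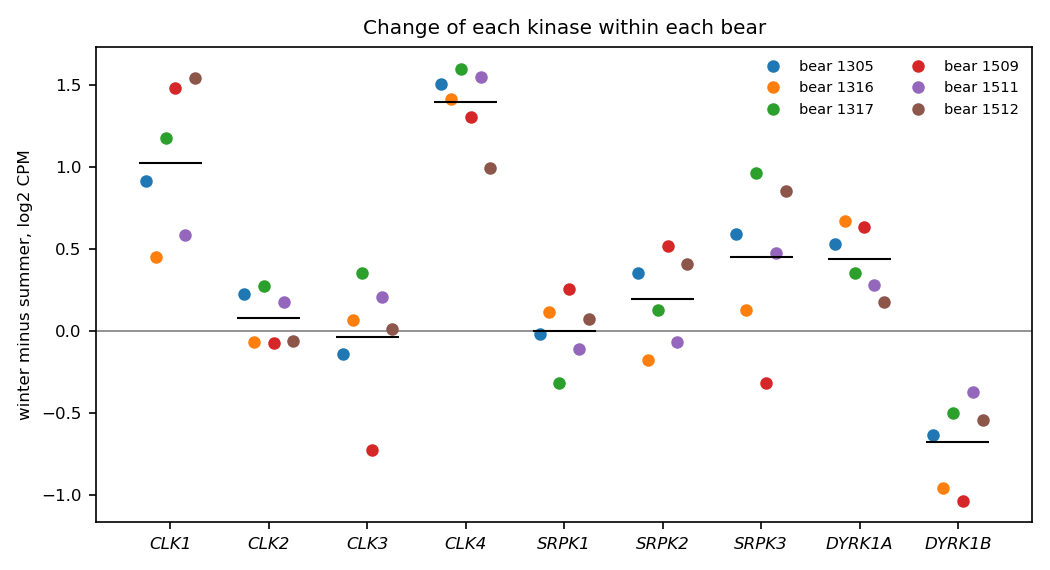
Winter minus summer difference in log2 CPM (vertical axis) for each kinase (horizontal axis), with 1 point per bear and a line at the mean of 6 bears. Points of CLK1, CLK4 and DYRK1A are above 0 in 6 of 6 bears and those of DYRK1B below 0 in 6 of 6, while bear 1509 lies lowest for CLK3, SRPK3 and DYRK1B.

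Among the SRPKs, SRPK3 is the muscle-specific member, whose gene is a known target of the MEF2 transcription factors. It varied most between bears of the 9 kinases, with an SD within seasons of 0.52 log2 CPM, where the median over all genes was 0.36. Summer levels ran from 3.78 (bear 1512) to 5.17 (bear 1316) with a median of 4.48, and winter levels from 3.91 (bear 1509) to 5.54 (bear 1317) with a median of 5.02. The seasons overlapped widely, but 5 of 6 bears were higher in winter. Fitted without the bear, SRPK3 had a log2 FC of 0.48 (95% interval −0.07 to 1.02, adjusted p = 0.15) and was not called.

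With a replicate block for the bear, which sets each bear's libraries against each other, SRPK3 was called higher, at 0.46 (95% interval 0.10 to 0.81, adjusted p = 0.0436). DESeq2 with the same block gave an adjusted p of 0.0243. Only bear 1509 went down, by 0.32, and it is the bear whose winter library carried the SNAP25 reads. Without that single library the log2 FC was 0.62 (adjusted p = 0.0319), and without both libraries of the bear 0.58 (adjusted p = 0.0607). The adjusted p therefore crossed 0.05 with the treatment of 1 library and of the pairing, from 0.0243 to 0.346 over all 15 alternatives. For the other 8 kinases the block changed no call.

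SRPK1, the widely expressed cytoplasmic kinase of SR proteins, was the flattest of the 9. Its range was 4.80 to 5.31 log2 CPM in summer with a median of 5.21, and 4.87 to 5.43 in winter with a median of 5.13. The log2 FC was 0.0057 with a 95% interval of −0.26 to 0.27 (adjusted p = 0.977), and 3 of 6 bears were higher. SRPK2, its close relative, was at 4.14 to 4.73 log2 CPM in summer (median 4.40) and 4.37 to 4.87 in winter (median 4.62), higher in 4 of 6 bears. Its log2 FC was 0.19 (95% interval −0.08 to 0.47, adjusted p = 0.246). Neither interval reaches the size of the CLK1 or CLK4 rise. The 3 SRPK pairs gave exact permutation p values of 0.0938 to 0.312 (n = 6 bears, adjusted 0.156 to 0.347). SRPK3 rose more than SRPK1 in 5 of 6 bears, the exception being bear 1509.

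DYRK1A and DYRK1B moved in opposite directions. DYRK1A, a dosage-sensitive nuclear kinase encoded on human chromosome 21 that also primes NFAT factors for export, rose from 5.32 to 5.65 log2 CPM in summer (median 5.60) to 5.70 to 6.30 in winter (median 5.94). The seasons were separated by a small margin. Its log2 FC was 0.45 (SE 0.11, adjusted p = 0.00565), 1.37-fold, and single bears rose by 0.18 to 0.67. DYRK1B, also called MIRK, is abundant in skeletal muscle and is known for roles in myoblast differentiation and cell-cycle exit. It fell from 6.14 to 6.72 log2 CPM in summer (median 6.23) to 5.34 to 5.86 in winter (median 5.63).

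Each bear had less DYRK1B in winter, by 0.37 to 1.04 on the log2 scale, and the log2 FC was −0.68 (SE 0.12, adjusted p = 0.000552), a winter level 0.623 times that of summer. Within bears the change of DYRK1A exceeded that of DYRK1B by 1.12 ± 0.45 (SD, n = 6 bears; exact permutation p = 0.0312, adjusted 0.0625 over the 10 pairs). Of the reads on the 9 kinases, DYRK1B took 20.7% ± 2.1 in summer, falling to 8.89% ± 2.0 (SD, n = 6 bears) in winter. CLK1 went from 28.1% ± 3.2 to 39.3% ± 9.0 and CLK4 from 10.4% ± 1.4 to 18.6% ± 2.6 of those reads (SD, n = 6 bears). A share also moves with the other kinases, so its change is not the change of the gene itself. SRPK1 went from 9.25% to 6.23% of those reads (means, n = 6 bears) at a log2 FC of 0.0057. Shares of different genes are not compared, since transcript lengths were not used.

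**Figure D3:**
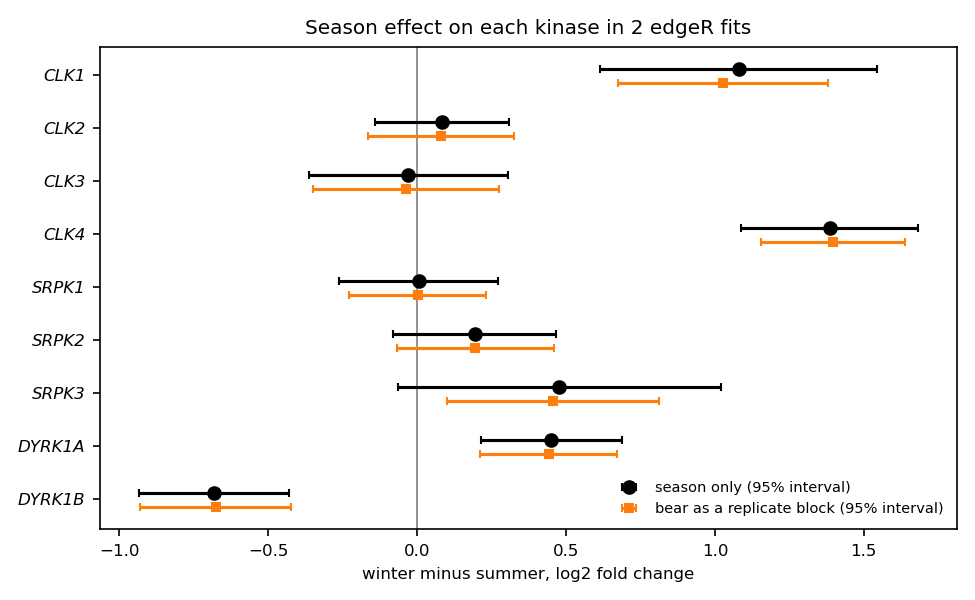
Log2 FC of winter over summer (horizontal axis) for each kinase, with 95% intervals, from edgeR with season only (black circles) and with a term for each bear, the replicate block (orange squares), 6 bears per season. The intervals of CLK1, CLK4, DYRK1A and DYRK1B lie clear of 0 in both fits, and that of SRPK3 crosses 0 only without the block.

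The genes on which these kinases act were taken as lists by symbol. Of 13 SR proteins tested, the splicing factors that CLKs and SRPKs phosphorylate, 6 were higher and 0 lower in winter in edgeR, beside 19.6% higher and 19.9% lower over all genes. At an unadjusted p below 0.05, 1 was lower, with 0 in DESeq2, 0 in limma voom and 1 (SRSF9, adjusted p = 0.0422) without the winter library of bear 1509. Their median log2 FC was 0.28. The largest was SRSF5, an SR protein whose own mRNA responds to growth and stress signals, from 6.95 ± 0.32 to 8.43 ± 0.21 log2 CPM (SD, n = 6 bears). Its log2 FC was 1.47 (SE 0.15, adjusted p = 1.65e-05), with no overlap of the seasons and 6 of 6 bears higher. SRSF2, SRSF4, SRSF11, SRSF12 and TRA2A were the others called, at 0.38 to 1.46, and SRSF12 had only 6 to 33 reads per library.

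SR-related proteins, which carry similar repeats and join splicing complexes, showed 7 of 16 higher and 0 lower in edgeR (all genes 19.6% and 19.9%), with a median of 0.33. At an unadjusted p below 0.05, 1 was lower, and ACIN1 was called lower in DESeq2 (adjusted p = 0.0281), with library totals and without bear 1316. SRRM1, a coactivator of splicing, led the list with a log2 FC of 0.66 (SE 0.08, adjusted p = 3.3e-05) and 6 of 6 bears higher. CLASRP, an SR-related protein that binds CLK4, was not called at 0.37 (SE 0.17, adjusted p = 0.10), with 5 of 6 bears higher. It was called without the winter library of bear 1509 (0.48, adjusted p = 0.0195) and without both its libraries (adjusted p = 0.038), within 0.0195 to 0.237 over the alternatives.

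Of the nearest relatives of the DYRK1 kinases and PRPF4B, 6 of 8 passed the limit of 30 reads, and 2 were higher and 0 lower in edgeR, where 19.6% and 19.9% of all genes were (0 lower at an unadjusted p below 0.05, in DESeq2 and in limma voom). HIPK3, a nuclear kinase related to the DYRKs, had a log2 FC of 0.82 (SE 0.14, adjusted p = 0.000621), and the splicing kinase PRPF4B one of 0.57 (SE 0.12, adjusted p = 0.00165). HIPK2 was called lower only without the winter library of bear 1509 (adjusted p = 0.0495), and HIPK4 only without the filter on low counts.

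Partners of the kinases, SR protein import and phosphatases gave 2 higher and 3 lower of 12, near the 19.6% and 19.9% of all genes, and a median of −0.11. DCAF7, the adaptor protein that binds DYRK1A and DYRK1B, fell in 6 of 6 bears from 5.71 ± 0.17 to 5.02 ± 0.19 log2 CPM (SD, n = 6 bears). Its log2 FC of −0.69 (SE 0.11, adjusted p = 0.000352) had nearly the size of that of DYRK1B. HSP90AB1, a chaperone of many kinases, rose by 0.73 (SE 0.13, adjusted p = 0.000778). In the same list AHSA1 was called lower (−0.39, SE 0.08, adjusted p = 0.00151), in 6 of 6 bears. HSP90AA1 and CDC37 were not called (−0.43 and −0.14). TNPO3, which imports phosphorylated SR proteins, was called lower (−0.24, adjusted p = 0.0339), but the replicate block ended that call (adjusted p = 0.0644), as did leaving out bear 1305, 1317, 1509, 1511 or 1512 (adjusted p = 0.0653 to 0.0978).

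Among 9 genes downstream of the DYRK1 kinases, 1 was higher and 3 were lower, against 19.6% and 19.9% of all genes, with a median of −0.0294. With the replicate block a second gene, CDKN1B, the cell-cycle inhibitor p27, was called higher (adjusted p = 0.045). NFATC3, one of the transcription factors that DYRK1A drives out of the nucleus, rose by 0.90 (SE 0.15, adjusted p = 0.000351). NFATC4 was called in the other direction, at −0.86 (SE 0.20, adjusted p = 0.00442) and lower in 6 of 6 bears, and NFATC1 and NFATC2 were not called (0.14 and −0.0294). CCND1, the cyclin D1 that DYRK1B marks for degradation, fell most, from 2.11 ± 0.67 to 0.05 ± 0.33 log2 CPM (SD over the 6 bears), with a log2 FC of −2.26 (SE 0.31, adjusted p = 0.000101). CCND1 had 18 to 194 reads per library and is also expressed by non-muscle cells, whose markers were often lower as given above. The part of those cells in the CCND1 value was not tested.

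The MEF2 factors, which drive SRPK3 transcription, had 3 of 4 members higher and 0 lower in edgeR, with 19.6% and 19.9% for all genes (0 lower at an unadjusted p below 0.05, in DESeq2 and in limma voom). MEF2C rose by 1.15 (SE 0.13, adjusted p = 2.35e-05) and MEF2A by 0.92 (SE 0.13, adjusted p = 0.000176), both in 6 of 6 bears. MEF2B, with 1 to 11 reads per library, was called at 1.35 (adjusted p = 0.0361) but in only 9 of 14 alternatives. Its call was lost without bear 1305, 1317 or 1511 (adjusted p = 0.119, 0.128 and 0.0647), without the filter and in DESeq2 with the block. MEF2D was not called at 0.24 (adjusted p = 0.233), but was called without bear 1509 (0.34, adjusted p = 0.0459) and without its winter library alone (0.35, adjusted p = 0.0257). SRPK3 overlapped between the seasons, as MEF2B and MEF2D did. MEF2A and MEF2C did not, which held for 9.12% of all genes with winter above. A link between the MEF2 factors and SRPK3 was not tested.

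RBM3 and CIRBP, RNA-binding proteins whose mRNAs are classically induced by mild cold, both rose in 6 of 6 bears, where 19.6% of all genes were called higher. RBM3 went from 7.67 ± 0.40 to 10.08 ± 0.16 log2 CPM (SD over the 6 bears), with a log2 FC of 2.37 (SE 0.17, adjusted p = 2.29e-06). CIRBP went from 7.35 ± 0.32 to 8.92 ± 0.35 (SD, n = 6 bears), at 1.57 (SE 0.18, adjusted p = 3.67e-05). Of the kinases, only CLK4 at 1.39 and CLK1 at 1.08 had a log2 FC above 1, and the difference from CIRBP was not tested. Changes of that size were not particular to them, since CLK4 ranked 1113 and CLK1 1594 from the highest log2 FC of 17290 genes.

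**Figure D4:**
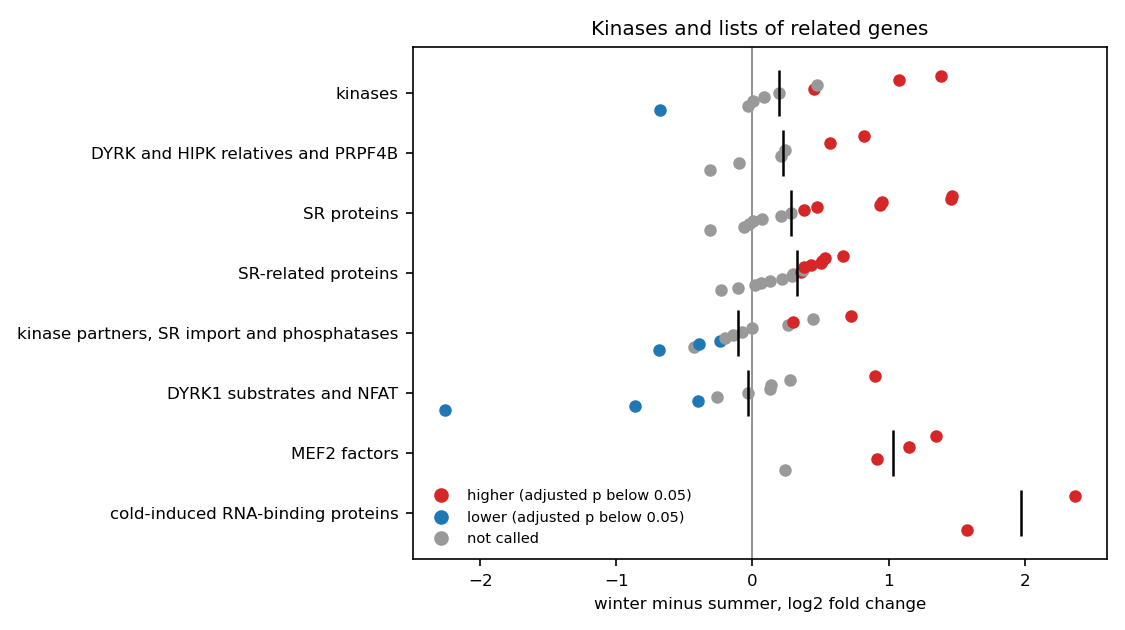
Log2 FC of winter over summer (horizontal axis) for each tested gene of the kinases and of 7 related lists (vertical axis), coloured by call, with a black line at the median of each list. Red points of the SR protein, SR-related and MEF2 lists lie on the right beside points not called, and the cold-induced list is red only. The partner and DYRK1 substrate lists hold both red and blue.

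Within a season, the levels of some kinases were correlated with each other. How common such values are among all pairs of genes in these libraries was not measured. Deviations from the season mean were correlated over the 12 libraries, which come from 6 bears and share their depth and tissue makeup, so these values are descriptions without a test. CLK3 and DYRK1B went together at a Pearson r of 0.87 (Spearman 0.89), at 0.88 in summer alone and 0.89 in winter alone. SRPK1 went against CLK2 (−0.86), DYRK1B (−0.84), CLK3 (−0.81) and SRPK3 (−0.76). Without bear 1509 these 4 values were −0.82, −0.82, −0.84 and −0.67, and without the 2 libraries farthest from the median of one gene of the pair they were −0.84, −0.71, −0.71 and −0.73.

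CLK1, CLK4 and DYRK1A, the kinases that rose in winter, had pooled values between −0.36 and 0.37 against CLK2, CLK3, DYRK1B, SRPK1 and SRPK3. These hide opposite values within the seasons, which ran from −0.53 to 0.60 in summer and from −0.71 to 0.53 in winter over those 15 pairs. CLK1 with CLK2 was at 0.60 in summer and −0.71 in winter, and CLK1 with SRPK1 at −0.53 and 0.51, each over 6 libraries. CLK3 with DYRK1A was at 0.041 pooled and −0.60 without the 2 farthest libraries. CLK1 and CLK4 were at 0.43 with each other (0.78 in summer, 0.22 in winter), and CLK1 and SRPK2 at 0.69 (0.63 and 0.77). The leading axis of such deviations over all genes held 24.8% of their variance, with the winter library of bear 1509 at 97.3 and the other 11 libraries between −31.1 and 9.76. Along it SRPK3 correlated at −0.83, DYRK1B at −0.69, CLK3 at −0.69, CLK2 at −0.58 and SRPK1 at 0.67, and the remaining kinases at −0.20 to 0.27. Of the 9 kinases only SRPK3 passed an absolute r of 0.7 with this axis, as did 11.8% of all genes, and the axis rests mainly on that 1 library.

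**Figure D5:**
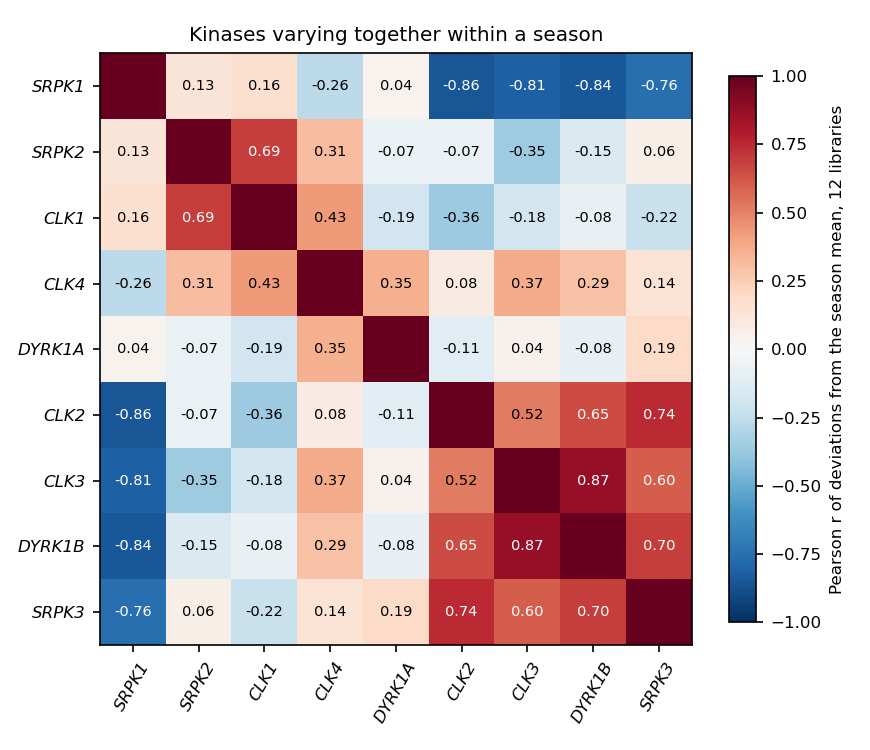
Pearson correlation (colour, −1 to 1) of deviations from the season mean between each pair of kinases over 12 libraries of 6 bears. CLK2, CLK3, DYRK1B and SRPK3 form a red block at 0.52 to 0.87 and SRPK1 is blue against each of them at −0.86 to −0.76.

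The genes whose deviations were most like each kinase were picked from 10345 genes that had a proper symbol (no LOC number) and a mean of at least 1 log2 CPM. CLK1 was followed most closely by RNPC3 (r = 0.97 over 12 libraries), a protein of the minor spliceosome, and SLC25A32 (0.94), a mitochondrial folate carrier. RNPC3 also changed with season, from 3.85 ± 0.29 to 5.35 ± 0.54 log2 CPM (SD over the 6 bears), with a log2 FC of 1.56 (SE 0.23, adjusted p = 0.000155), with 6 of 6 bears higher. SLC25A32 gave no season call at 0.13 (adjusted p = 0.409). So of the genes closest to CLK1 within seasons, RNPC3 rose with it and SLC25A32 did not.

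For CLK4 the closest were TMEM176B and POC5 (0.86 each), and TMEM176B was called lower in winter (−1.60, adjusted p = 5.95e-05). DYRK1A was nearest to PAN2 (0.88), a subunit of a poly(A) nuclease, and CDC14A (0.87), a phosphatase, both called higher at 0.62 (adjusted p = 0.000533) and 0.86 (adjusted p = 0.0028). SRPK3 was nearest to PXN (0.95), the focal adhesion protein paxillin, called higher at 0.68 (adjusted p = 0.00172), and to A4GALT (0.94). SRPK1 was nearest to ROCK2 and EXOC5 (0.96 each), CLK3 to EEF1D (0.96) and ERCC1 (0.93), DYRK1B to WBP1 and SELENOH (0.94 each), CLK2 to GLMP and PLCD1 (0.93 each), and SRPK2 to TMEM138 (0.87) and RGMB (0.86). Each is the highest of 10345 values over 12 libraries, so a high r comes in part from that choice.

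The 4 kinases called with season as the only term kept their call under each of 15 alternatives. Adjusted p reached at most 0.000209 for CLK4, 0.00346 for DYRK1B, 0.00862 for CLK1 and 0.0232 for DYRK1A. CLK1 and CLK4 have closely similar sequences, and how reads of 50 bases that match more than one gene were counted is not given in the sources used here, and an exchange of reads between them was not tested.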

How the data were processed

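Muscle RNA from 6 bears in 2 seasons gave 12 libraries. The authors prepared stranded poly-A libraries, sequenced single-end reads of 50 bases, aligned them with TopHat2 2.1.1 to ASM358476v1, discarded alignments with over 3 mismatches and counted reads per gene with featureCounts 1.6.2. The deposited values are raw counts, with 0 lines lacking a gene name. Seasons and bear numbers come from the labels. Replicates are different bears, whose sex, sampling year and sequencing lane were not terms of the model.

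Genes with at least 30 reads entered the test, and scaling was by TMM. The seasons were compared in edgeR 4.0.16 (R 4.3.3, glmQLFit, glmQLFTest) with season as the only term. It was chosen in place of the paper's DESeq2, whose design formula the paper does not give. This main fit leaves out the known pairing of a bear's 2 libraries, which the fits with a replicate block use. Alternatives were the bear as a replicate block, DESeq2 1.42.0 with and without it, limma 3.58.1 voom, RLE, library totals, no filter, filterByExpr, each bear left out and, added after seeing the data, the winter library of bear 1509 left out. The fits were run on simulated counts with no effect of the bear and no outlying library. That check therefore does not bear on the pairing or on the winter library of bear 1509. Per the paper's methods each bear gave a summer and a winter sample, and deviations of a bear's libraries correlated at 0.0903 to 0.344 (different bears: median −0.0634, highest 0.142, above the lowest value for the same bear, that of bear 1509). No 2 libraries of a season were copies (lowest chi-square per gene 30.2).

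The kinases, lists and rules were chosen with earlier results of these data known. Named list genes were the largest called rise and fall of each list, with CIRBP, RBM3, CLASRP, DCAF7 and the MEF2 genes. Further list genes (SRSF2, SRSF4, SRSF9, SRSF11, SRSF12, TRA2A, ACIN1, PRPF4B, HIPK2, HIPK4, TNPO3, AHSA1, HSP90AA1, CDC37, CDKN1B, NFATC1, NFATC2 and NFATC4), and the marker genes, were named after their values were seen, as were the family pairs and the correlations. For likeness, the 2 genes of highest r were named per kinase. Gene sequences and positions in this build were not used here. The sequencing lane of each library is not given in the labels, so its part was not tested.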

Additional observations from a re-analysis of the deposited data

How the results depend on the processing

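Of the 9 kinases, 3 were called higher and 1 lower whichever bear was left out; the number higher was 4, with SRPK3 added, with the bear as a replicate block in edgeR, with that block in DESeq2 and without the winter library of bear 1509 alone. Leaving out libraries gave 2541 to 3457 genes higher and 2715 to 3682 lower at an adjusted p below 0.05, and 1284 to 2203 higher and 1314 to 2286 lower by the DEG limits, lowest without bear 1305. The sign changed only for kinases that were not called. CLK3 ran from −0.096 to 0.11 over the bears left out, was positive at 0.11 without bear 1509 and at 0.047 without its winter library. SRPK1 was at −0.073 with library totals and −0.0081 without the filter, ran from −0.042 to 0.072 over the bears left out, with −0.00056, −0.0081, −0.042 and −0.0075 without bear 1305, 1316, 1509 and 1512, and was at −0.058 without the winter library of bear 1509. Library totals lowered the median of all genes by 0.08 on the log2 scale, to −0.08, and changed no call among the kinases. The lowest kinase count was 214 reads in a library, for CLK2, while SRSF12 and MEF2B had 33 reads or fewer in a library and are limited by counting. Of the lists, the number called higher among partners was 1 with library totals, without the filter and without bear 1305 or 1511. It was 2 among genes downstream of DYRK1 with either replicate block and without bear 1512. The cause of these moves was not tested.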
